A study of Homo sapiens with 6 samples.

Results

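The genes described here are 10 human genes that act at the step from G2 phase into mitosis: the cyclins CCNA2, CCNB1 and CCNB2, the kinase CDK1 that they activate, the phosphatases CDC25A, CDC25B and CDC25C, the opposing kinases WEE1 and PKMYT1, and the kinase AURKA. They were taken by symbol, and all 10 were found among the 58299 genes of the deposited count table and among the 15575 genes with enough reads to be tested. The cells were AC16, a human line derived from fusing ventricular heart muscle cells with transformed fibroblasts, which divides in culture. Control cells (3 libraries) received 0.1% DMSO, the solvent, and were harvested after 72 h. Treated cells (3 libraries) received 100 nM CDDO-Me, a triterpenoid known for activating the antioxidant factor NRF2, and after 24 h received 100 nM doxorubicin, a topoisomerase II poison that breaks DNA, for the remaining 48 h. No DMSO content is recorded here for the treated cells. Neither drug alone is analysed here, so no difference below can be assigned to one of them. The labels do not say whether the replicates were separate cultures, and p-values therefore measure the spread between these libraries.

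Entry into mitosis is driven by CDK1 bound to a cyclin. WEE1 and PKMYT1 hold the complex inactive by phosphorylating CDK1 near its ATP-binding site, and CDC25 phosphatases remove those phosphates. AURKA, with its cofactor BORA, activates PLK1, which in turn acts on CDC25C and WEE1. Many of these genes are transcribed in G2 and mitosis through a promoter element called the CHR (cell cycle genes homology region), bound by the DREAM and MYB-MuvB complexes together with FOXM1, and through nearby CCAAT boxes bound by the factor NF-Y. CDC25A is better known as an E2F target expressed from late G1 phase.

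Promoter windows from RefSeq (GRCh38.p14, 250 bases before to 50 after each listed transcript start) were found for 7 of the 10 genes, with 14 windows in all because CDK1, CDC25B and CDC25C have more than 1 listed start. WEE1, PKMYT1 and AURKA had no entry. The stretches below are shown because 6 of the 7 genes share an arrangement that CDC25A lacks. Each is written 5′ to 3′ on the gene's own strand, with matches to the searched letters in capitals. Both strands were searched for the CCAAT box, whose letters read ATTGG on the other strand. They were also searched for CHR-type hexamers, which were the canonical TTTGAA and the variant forms TTCGAA besides TTTAAA and also CTTGAA. The E2F-type octamers searched were TTTCCCGC, TTTCGCGC, TTTGCCGC and TTTGGCGC.

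For CCNB1, the far and near CCAAT boxes (chr5:69167056-69167075 and chr5:69167088-69167107, plus strand) precede the CHR-type hexamer (chr5:69167113-69167132):
CCNB1 far CCAAT box: gcagccgCCAATgggaaggg
CCNB1 near CCAAT box: gaacaggCCAATaaggaggg
CCNB1 CHR-type hexamer: tgcggggTTTAAAtctgagg
For CCNB2, a stretch with a pair of CCAAT boxes (chr15:59105016-59105077, plus strand) is followed by a nearer box (chr15:59105085-59105104) and the hexamer (chr15:59105110-59105129):
CCNB2 far CCAAT boxes: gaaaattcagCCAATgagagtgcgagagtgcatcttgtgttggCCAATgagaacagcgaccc
CCNB2 near CCAAT box: gggccgcCCAATggggcgca
CCNB2 CHR-type hexamer: cgcggtaTTTGAAtcctgga
For CCNA2 (chr4:121823934-121823978 and chr4:121823899-121823918, minus strand), 1 hexamer lies before the box and another after it:
CCNA2 CCAAT box: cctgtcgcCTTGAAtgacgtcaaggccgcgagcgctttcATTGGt
CCNA2 CHR-type hexamer: cgggataCTTGAActgcaag
For CDK1 (chr10:60778425-60778444 and chr10:60778458-60778477, plus strand), CDC25C (chr5:138331877-138331896 and chr5:138331822-138331841, minus strand) and CDC25B (chr20:3796230-3796249 and chr20:3796265-3796284, plus strand), the box and the hexamer are:
CDK1 CCAAT box: ctacccgATTGGtgaatccg
CDK1 CHR-type hexamer: cggtgagTTTGAAactgctc
CDC25C CCAAT box: cgcggagATTGGctgacgca
CDC25C CHR-type hexamer: cggaaggTTTGAAtggtcaa
CDC25B CCAAT box: ctaccccATTGGtggcgtcc
CDC25B CHR-type hexamer: gttatttTTCGAAtatataa
For CDC25A (chr3:48188448-48188537, minus strand), a pair of CCAAT boxes is followed by an E2F-type octamer:
CDC25A: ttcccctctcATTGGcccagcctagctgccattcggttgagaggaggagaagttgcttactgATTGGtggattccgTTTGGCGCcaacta

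For the boxes printed above that lie nearest to a printed hexamer downstream of them, the distance, start to start, was 25 bases in CCNB1 and CCNB2, 28 in CCNA2, 33 in CDK1, 35 in CDC25B and 55 in CDC25C. CDK1 has further boxes, not printed, whose next hexamer is closer, at 19 bases in the window of start 1 and 9 in that of start 2. CCNB2 has a further box and hexamer, also not printed, at -244 and -193 from the start and 51 bases apart. CDC25B and CDC25C have other matches that are not printed. A hexamer 20 to 60 bases downstream of a box was present in 7 of the 14 windows, and in 2.69% of all 35116 RefSeq windows of the same length. Any CHR-type hexamer was present in 9 of the 14 windows and in 32.2% of all windows, a CCAAT box in 10 of 14 and 34.6%, and an E2F-type octamer in 3 of 14 and 3.31%. The arrangement was present at the single listed start of CCNA2, CCNB1 and CCNB2, but at 1 of 2 listed starts of CDK1, 1 of 4 of CDC25B and 2 of 4 of CDC25C. The E2F-type matches were in CDC25A and CDK1. The motifs and the spacing were chosen with the sequences in view. The windows of 1 gene can overlap, so these window counts hold some matches more than once. The CDC25C windows of starts 3 and 4 share the same box and hexamer, and the CDK1 windows of starts 1 and 2 share the same octamer. A match is a run of letters, not a shown binding site.

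**Figure D1:**
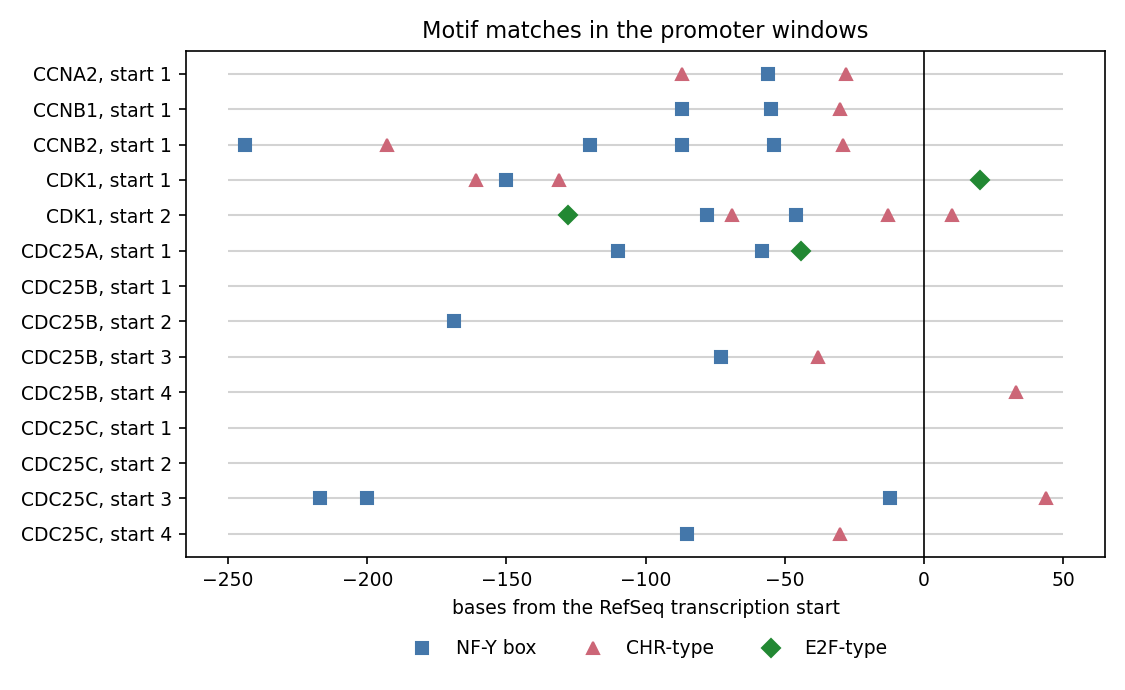
Positions of CCAAT (NF-Y) boxes, CHR-type hexamers and E2F-type octamers in the RefSeq promoter windows of 7 mitotic entry genes. The x axis is the distance in bases from the listed transcript start, and each row is 1 listed start. A CHR-type hexamer close to the start follows a CCAAT box in a window of CCNA2, CCNB1, CCNB2, CDK1, CDC25B and CDC25C, and CDC25A has none.

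The libraries held 17150259 to 20193957 counts. Levels of 1 gene are given as counts per 1e6 counts (CPM) scaled by TMM factors, and levels of different genes are compared as TPM (transcripts per 1e6, after division by exon length). TPM carries no TMM factors, so differences between the groups in TPM are scaled otherwise than those in CPM. Changes are log2 differences, treated minus control, from edgeR's quasi-likelihood test with Benjamini-Hochberg adjustment over all tested genes, and "called" means an adjusted p under 0.05. The treatment moved much of the transcriptome: 63.5% of tested genes were called, 31.2% lower and 32.3% higher, and 4.62% were called and at least 2-fold lower. AC16 cells were poor in heart muscle markers. Of 14 such genes 12 were too low to test, 11 lay under 1 TPM in all libraries, TNNI3 was at 0 throughout, and the tested GATA4 and NPPB were both called lower. The GATA4 groups overlapped, and with total-count scaling 1 of these 2 genes was called lower. Fibroblast markers were abundant, with a summed level of 8480 to 9042 TPM in control and 4379 to 4541 TPM in treated libraries, and 9 of 10 fell (with total-count scaling the remaining gene, VIM, was called higher). Endothelial markers summed to 18.7 to 20.8 TPM in control and 8.95 to 9.55 TPM in treated libraries (1 lower, 2 higher, of 4 tested of 5), and blood cell markers to 0.770 to 1.49 and 2.97 to 3.87 TPM (1 higher, of 2 tested of 4). The part of these marker shifts in the results below was not tested.

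All 10 mitotic entry genes were called, 8 lower and 2 higher, and in all 10 the ranges of the 3 control and 3 treated libraries did not overlap. Among tested genes 63.5% were called and 66.7% had groups that did not overlap (32.6% lower, 34.1% higher), so a call alone says little about a gene here. The 8 lower calls compare with 31.2% lower among tested genes, and the 4 genes at least 2-fold lower (CCNB1, AURKA, CCNA2 and CCNB2) with 4.62%. The median log2 change of the 10 genes was -0.69, and that of all tested genes was 0.02. The genes did not move as a block: the changes ran from a fall to 24.9% of control for CCNB1 to a rise to 124% of control for PKMYT1. In a test against a 1.5-fold change (glmTreat), 5 stayed called lower (CCNB1, AURKA, CCNA2, CCNB2 and CDC25C) and 0 higher, against 7.33% and 11.9% of all tested genes. In bulk RNA, fewer cells in G2 and mitosis and less of the RNA per such cell cannot be told apart.

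**Figure D2:**
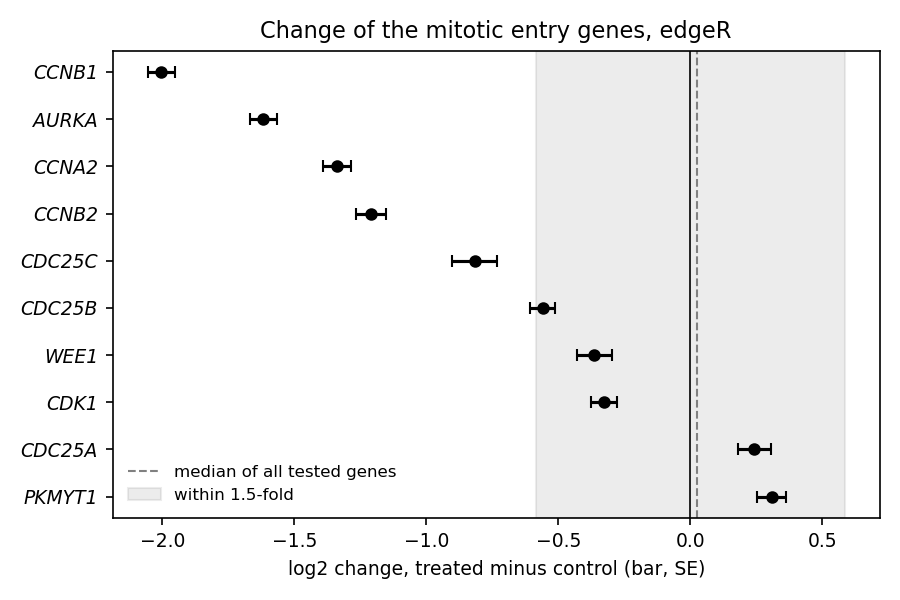
Log2 change, treated minus control, of the 10 mitotic entry genes, with bars for the standard error from edgeR (3 control and 3 treated libraries), a dashed line at the median of all tested genes and shading within 1.5-fold. CCNB1, AURKA, CCNA2 and CCNB2 lie below -1, and CDC25A and PKMYT1 lie above 0.

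Among the cyclins, all 3 fell by more than 2-fold, and CCNB1 fell furthest. CCNB1 encodes cyclin B1, the main CDK1 partner at mitotic entry (ENSG00000134057, chr5:69167010-69178245, GRCh38, plus strand). It was at 388, 374 and 386 CPM in the control libraries and at 105, 89.9 and 91.8 CPM in the treated ones. All treated libraries were far below all control libraries. The means were 383 ± 7.8 and 95.4 ± 8.0 CPM (SD, n = 3 each), a log2 change of -2.00 (SE 0.052, edgeR adjusted p = 9.02e-42), and 0.552% of tested genes had a lower change. CCNB2, the second B-type cyclin (ENSG00000157456, chr15:59105078-59125045, plus strand), was at 132, 122 and 125 CPM in control and 57.8, 53.1 and 52.8 CPM in treated libraries. The groups were well apart, but the fall was smaller than that of CCNB1, at -1.21 (SE 0.057, edgeR adjusted p = 3.83e-28), or 2.31-fold. CCNA2, cyclin A2, which acts from S phase to early mitosis (ENSG00000145386, chr4:121816444-121823933, minus strand), was at 208, 202 and 201 CPM in control and 84.6, 76.0 and 81.0 CPM in treated libraries. Its change was -1.34 (SE 0.052, edgeR adjusted p = 2.42e-32), or 2.53-fold lower. Of its exon bases, 9.08% overlap EXOSC9, whose own log2 change was -0.36, and libraries without strand information do not separate the reads there.

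The unequal fall altered the makeup of the cyclin pool. Summed over the 3 cyclins, the level was 1160, 1117 and 1148 TPM in control and 411, 361 and 378 TPM in treated libraries. CCNB1 made up 55.6%, 55.8% and 56.4% of that sum in control and 44.6%, 43.2% and 42.9% in treated libraries. The ratio of CCNB2 to CCNB1 in TPM, taken within each library and so free of library scaling, rose from 0.301 ± 0.0075 to 0.523 ± 0.018 (SD, n = 3 each). In all, 10 such ratios were examined with a two-sided exact permutation test, whose smallest possible p with 3 against 3 libraries is 0.1. Of these, 9 (this one included) had groups that did not overlap and reached that p of 0.1 (0.111 after Benjamini-Hochberg adjustment), so none could pass 0.05.

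CDK1, the catalytic subunit, changed far less than its cyclins. CDK1 (ENSG00000170312, chr10:60778331-60794852, plus strand) was at 209.6, 231 and 215 CPM in control and 183, 167 and 173 CPM in treated libraries. The lowest control library was above the highest treated one by a smaller margin than for the cyclins. The log2 change was -0.33 (SE 0.050, edgeR adjusted p = 4.94e-08), which leaves 79.7% of control, and 25.0% of tested genes had a lower change. With libraries scaled by total counts alone, which moves the median of all genes from 0.02 to 0.15, the change of CDK1 was -0.20 and still called. The ratio of CCNB1 to CDK1 in TPM was 2.85, 2.48 and 2.76 in control and 0.878, 0.827 and 0.818 in treated libraries, a 3.20-fold fall, so that CCNB1 RNA went from above to below that of CDK1. The ratio of CCNA2 to CDK1 fell from 1.31 ± 0.085 to 0.650 ± 0.010. The summed cyclins stood at 5.12, 4.45 and 4.89 times CDK1 in control and 1.97, 1.91 and 1.91 times in treated libraries.

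**Figure D3:**
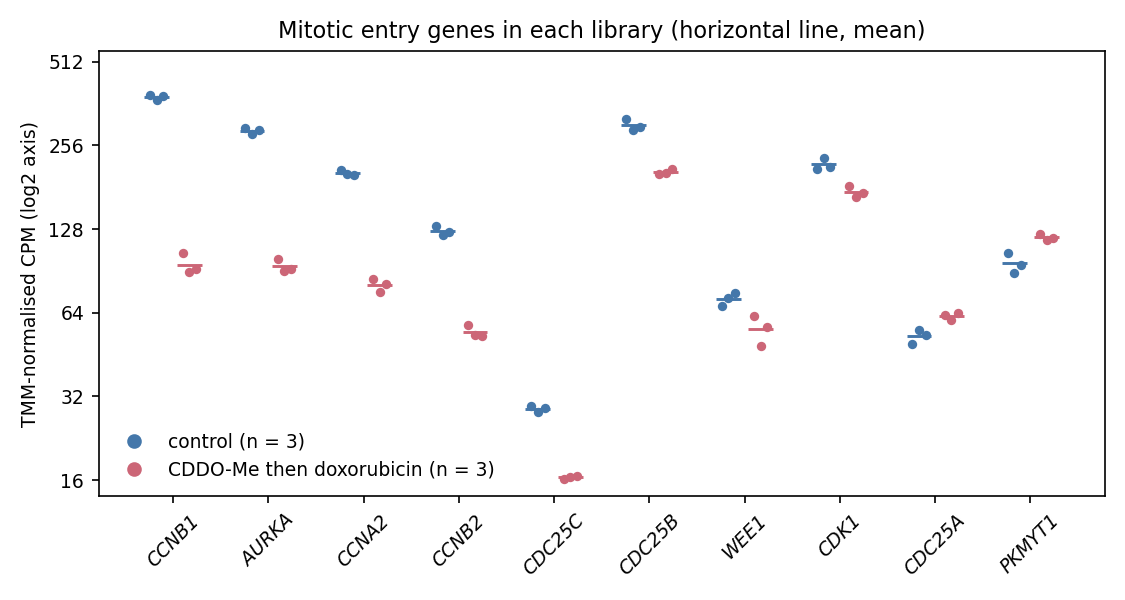
Level of each of the 10 mitotic entry genes in every library, in TMM-scaled CPM on a log axis, with each point 1 library, lines at the group means, and control left of treated libraries for each gene. The 3 treated libraries lie below the 3 control libraries for 8 genes and above them for CDC25A and PKMYT1.

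The 3 CDC25 phosphatases split by direction: CDC25B and CDC25C fell and CDC25A rose. CDC25B (ENSG00000101224, chr20:3786772-3806121, plus strand), a starter phosphatase for cyclin B-CDK1, was at 319.6, 292 and 297 CPM in control and 203, 204 and 209.6 CPM in treated libraries. The treated libraries lay within a narrow band below all controls, and the log2 change was -0.56 (SE 0.048, edgeR adjusted p = 3.31e-16), or 67.9% of control. CDC25C (ENSG00000158402, chr5:138285265-138338355, minus strand), which acts in the feedback loop with CDK1 and PLK1, was at 29.5, 28.1 and 29.02 CPM in control and 16.2, 16.4 and 16.6 CPM in treated libraries. It lost more, at -0.82 (SE 0.087, edgeR adjusted p = 1.38e-12), or 56.7% of control. Of its exon bases 9.62% overlap FAM53C, which rose by 0.54 on the log2 scale. CDC25A (ENSG00000164045, chr3:48157146-48188402, minus strand), which also acts at the G1 to S step, was at 49.5, 55.3 and 53.2 CPM in control and 62.9, 60.04 and 63.7 CPM in treated libraries. All treated libraries lay above all controls, by a small margin. The log2 change was 0.24 (SE 0.063, edgeR adjusted p = 6.41e-04), or 118% of control, and leaving out 1 library at a time gave 0.19 to 0.27. With total-count scaling it was 0.37.

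The sum of the 3 phosphatases was 406, 385 and 392 TPM in control and 302, 299 and 314 TPM in treated libraries. CDC25A contributed 12.5%, 14.9% and 14.1% of it in control and 22.6%, 21.7% and 22.3% in treated libraries. CDC25B remained the most abundant of the 3, at 74.9% to 77.4% in control and 69.5% to 70.3% in treated libraries. The ratio of CDC25C to CDC25A fell from 0.743 ± 0.059 to 0.356 ± 0.011, and that of CDC25B to CDC25A from 5.51 ± 0.59 to 3.15 ± 0.087.

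Of the inhibitory kinases, WEE1 was called lower and PKMYT1 higher. PKMYT1 shares exon bases with other genes, so the size of its change is uncertain. The part of the shared exons in that change was not tested. WEE1, the nuclear kinase (ENSG00000166483, chr11:9573681-9593457, plus strand), was at 67.4, 72.6 and 75.5 CPM in control and 62.2, 48.5 and 56.8 CPM in treated libraries. The groups did not overlap, but the treated libraries had the widest spread, relative to the mean, of the 10 genes (55.8 ± 6.9 CPM, SD, n = 3). The log2 change was -0.36 (SE 0.066, edgeR adjusted p = 2.56e-06), -0.45 to -0.28 with 1 library left out at a time, and -0.24 with total-count scaling. PKMYT1, the membrane-bound kinase (ENSG00000127564, chr16:2968024-2980539, minus strand), was at 105, 89.1 and 95.4 CPM in control and 123, 117 and 118 CPM in treated libraries. All treated libraries were above all controls, with a log2 change of 0.31 (SE 0.055, edgeR adjusted p = 1.88e-06). Of its exon bases 31.6% overlap PAQR4 and KREMEN2. PAQR4, on the opposite strand, fell from 43.4 ± 4.2 to 25.0 ± 2.0 CPM, and KREMEN2 went from 2.24 ± 0.60 to 3.39 ± 0.091 CPM. The sources used here do not state how reads in the shared exons were counted, and the sums and ratios with PKMYT1 below carry the same uncertainty.

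The 2 kinases together stood at 119.5, 109.1 and 116.5 TPM in control and 139.6, 126.5 and 134.2 TPM in treated libraries, without TMM factors. The ratio of PKMYT1 to WEE1 rose from 2.48 ± 0.33 to 3.96 ± 0.42. Set against WEE1, CDC25A rose (1.65 ± 0.064 to 2.52 ± 0.26) and CDC25C fell (1.22 ± 0.090 to 0.899 ± 0.12). For CDC25B the ratio to WEE1 was 9.06 ± 0.95 in control and 7.97 ± 1.025 in treated libraries, the groups overlapped, and the two-sided exact permutation p was 0.3 (0.300 after adjustment). Of the 10 ratios this was the one whose groups overlapped.

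AURKA, the centrosomal kinase that activates PLK1 (ENSG00000087586, chr20:56369389-56392337, minus strand), fell next most after CCNB1. It was at 295, 281 and 291 CPM in control and 100.1, 90.8 and 92.0 CPM in treated libraries. All treated libraries were far below all controls, at 32.6% of the control level on average, with a log2 change of -1.62 (SE 0.051, edgeR adjusted p = 2.11e-37). The ratio of AURKA to CCNB1 in TPM rose from 0.660 ± 0.0041 to 0.865 ± 0.025. Across the 10 genes, treated replicate 2 lay below its group mean for 9, and its mean deviation was -0.060 log2 units. The mean deviation of treated replicate 1 was 0.063.

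Per exon base, the order of the genes changed between the groups. The length used is that of all annotated exons of a gene (9239 bases for WEE1, 4117 for CDC25A and 3047 for CDC25C). The rank of a gene and the size of a TPM ratio between genes depend on this length. By CPM, WEE1 (71.9 on average in control) stood above CDC25A (52.7) and CDC25C (28.9). The order by TPM was as follows. In control libraries CCNB1 stood highest (639 ± 13 TPM), followed by AURKA (422 ± 11), CCNA2 (310.6 ± 4.6), CDC25B (299.6 ± 13), CDK1 (237 ± 13), CCNB2 (192 ± 6.9), PKMYT1 (81.8 ± 6.5), CDC25A (54.6 ± 3.3), CDC25C (40.4 ± 0.93) and WEE1 (33.2 ± 2.1). All 3 control libraries had this order, although CCNA2 and CDC25B differed by less than their spread. In treated libraries CDC25B (213 ± 5.5 TPM) and CDK1 (198 ± 9.8) came first, ahead of CCNB1 (167 ± 14), AURKA (144 ± 7.9), CCNA2 (129 ± 7.5), PKMYT1 (106 ± 3.1), CCNB2 (87.3 ± 4.4), CDC25A (67.7 ± 2.7), WEE1 (27.1 ± 3.5) and CDC25C (24.1 ± 0.43). WEE1 and CDC25C did not differ beyond their spread there, and treated replicate 2 had them in the other order. Summed over the 10 genes, the level was 2340.4, 2271 and 2319 TPM in control and 1214, 1112 and 1167 TPM in treated libraries.

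**Figure D4:**
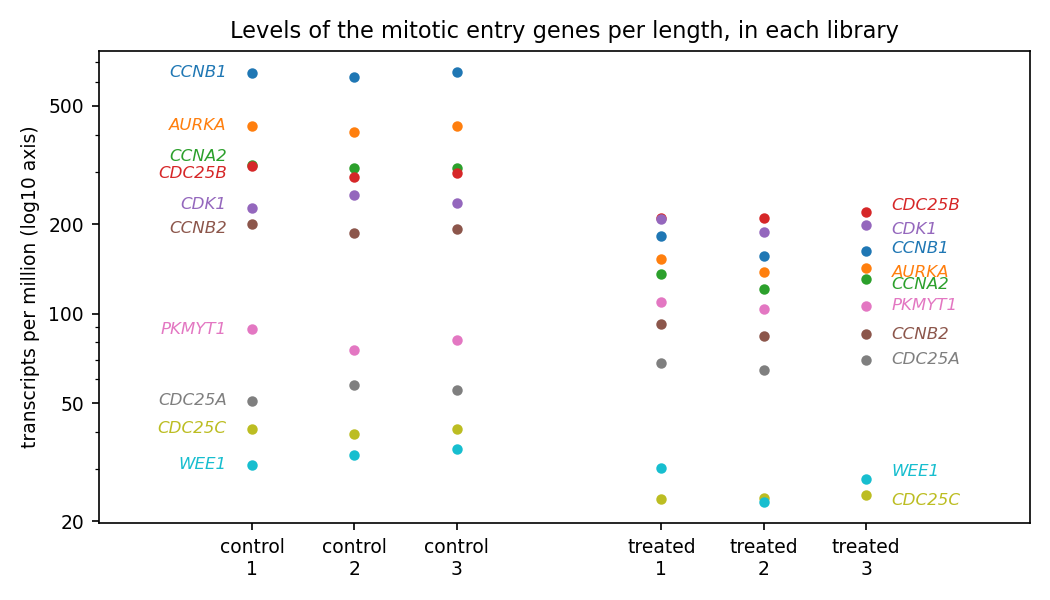
TPM of the 10 mitotic entry genes in control and treated libraries, on a log axis, with each point 1 library (3 per group). CCNB1 is the highest of the 10 in control libraries at 639 TPM on average, and CDC25B is the highest in treated libraries at 213 TPM.

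Genes around these 10 in the pathway were taken from 5 lists, with 76 of 80 genes tested. Of the 76, 44 were called lower, 15 higher and 17 passed no call (median log2 change -0.26), against 31.2% lower and 32.3% higher among all tested genes. With total-count scaling, 34 were lower and 21 higher. In all, 10 were called and at least 2-fold lower and 5 at least 2-fold higher, against 4.62% and 10.9% of all tested genes.

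In the list of further cyclins, CDK2, docking subunits and the CDK-activating kinase, 6 of the 7 tested genes were lower and 0 higher (median -0.56). The shares among all tested genes were 31.2% and 32.3%. CCNF, cyclin F, a ubiquitin ligase subunit also counted in the degradation list below, fell from 98.2 ± 4.7 to 48.4 ± 2.4 CPM, a change of -1.02 (edgeR adjusted p = 1.95e-23). CKS2, a small docking subunit of CDK1, fell by 0.75 on the log2 scale, and MNAT1, an assembly factor of the CDK-activating kinase, fell by 0.74. The paralog CKS1B was at 140.0 ± 6.3 CPM in control and 137 ± 4.8 CPM in treated libraries, a change of -0.03 (edgeR adjusted p = 0.666), which turned to 0.03 with upper-quartile and 0.10 with total-count scaling. CCNA1 and CCNB3 were too low to test. With upper-quartile scaling the list had 5 lower, and with total-count scaling 4.

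Among the mitotic entry kinases and the Greatwall switch, which restrains the phosphatase PP2A-B55, 7 of 12 tested genes were lower and 2 higher (median -0.40). These counts compare with 31.2% lower and 32.3% higher among all tested genes. PLK1, the kinase downstream of AURKA, fell from 304 ± 20 to 59.1 ± 2.4 CPM, a change of -2.36 (SE 0.054, edgeR adjusted p = 1.23e-44), more than any of the 10 genes above. Of the exon bases of PLK1 12.5% are shared with other genes. BORA, its activating cofactor, fell from 18.2 ± 0.59 to 7.01 ± 0.93 CPM (-1.38), with 37.0% of its exon bases shared with another gene. TPX2, the spindle activator of AURKA, fell from 484 ± 24 to 209 ± 9.4 CPM (-1.21, edgeR adjusted p = 5.97e-32). MASTL, the Greatwall kinase, was at 84.7 ± 3.8 and 89.5 ± 2.2 CPM, with 12.2% of its exon bases shared with another gene. It was not called (0.08, edgeR adjusted p = 0.201), though it was called with upper-quartile (0.13) and total-count scaling (0.21). The count of higher genes in the list was 3 and 4 with these scalings. AURKC was too low to test.

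The checkpoint list, of kinases and inhibitors that act on CDC25, WEE1 and CDK1, held both directions. Of its 16 tested genes, 9 were lower and 5 higher (median -0.26), against 31.2% and 32.3% of all tested genes. The share of higher genes was thus close to that of all tested genes. CDKN1A, which encodes the CDK inhibitor p21, rose from 216 ± 11 to 4248 ± 234 CPM, a change of 4.30 (SE 0.053, edgeR adjusted p = 3.09e-59). SFN, the 14-3-3 protein sigma known for holding CDK1-cyclin B in the cytoplasm, rose from 0.905 ± 0.34 to 14.2 ± 1.3 CPM (3.97), and PLK3, a stress kinase, from 12.0 ± 1.3 to 66.7 ± 1.9 CPM (2.48). GADD45A, which can dissociate CDK1 from cyclin B1, rose from 80.7 ± 0.92 to 296 ± 22 CPM (1.88). CHEK1, the checkpoint kinase that phosphorylates CDC25 proteins, fell from 52.8 ± 3.1 to 41.8 ± 3.1 CPM (-0.34, edgeR adjusted p = 1.65e-05), and its change was -0.21 with total-count scaling. CHEK2 was at 23.3 ± 0.40 and 24.5 ± 2.2 CPM and was not called (edgeR adjusted p = 0.464), except with total-count scaling (0.20). GADD45G was too low to test. The other 14-3-3 genes of the list, looked at after their values were seen, did not follow SFN: YWHAE, YWHAZ, YWHAH, YWHAQ and YWHAG were called lower by 0.79 to 0.35 on the log2 scale, and YWHAB was not called (-0.07).

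Of 21 genes for the degradation of cyclins, CDC25A and WEE1, 17 were lower and 1 higher (median -0.38). Of all tested genes, 31.2% were lower and 32.3% higher. With total-count scaling, 10 of the 21 were lower. UBE2C, the ubiquitin-conjugating enzyme of the anaphase-promoting complex, fell from 180.0 ± 6.1 to 68.5 ± 0.74 CPM (-1.39, edgeR adjusted p = 4.91e-33). CDC20, the complex's mitotic activator, fell from 333 ± 18 to 129 ± 6.4 CPM (-1.37), and its subunit CDC27 from 234 ± 11 to 105 ± 4.1 CPM (-1.16). FZR1, the activator used after mitosis and in G1, fell less (-0.61). FBXO5, an inhibitor of the complex, was the gene called higher (0.16, edgeR adjusted p = 0.0199, and 0.28 with total-count scaling), and that call was lost with no filter on low counts and when control 1, control 2, treated 1 or treated 3 was left out (edgeR adjusted p = 0.0774, 0.102, 0.0599, 0.135 and 0.0776).

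Of 21 transcription factors, 6 were lower and 7 higher (median 0.03), shares close to the 31.2% and 32.3% of all tested genes. With upper-quartile scaling 9 were higher, and with total-count scaling 10. E2F7, a repressor E2F, rose from 77.6 ± 2.7 to 308 ± 5.8 CPM (1.99, edgeR adjusted p = 4.31e-42), and E2F1 rose from 128.03 ± 6.6 to 175 ± 7.6 CPM (0.45). FOXM1, an activator of G2 and mitosis genes, fell from 358 ± 16 to 211 ± 5.4 CPM (-0.76, edgeR adjusted p = 3.26e-22), with 15.9% of its exon bases shared with another gene. E2F5 fell from 4.49 ± 0.99 to 2.15 ± 0.28 CPM (-1.06), with 18.6% of its exon bases shared with other genes. MYBL2, the MYB subunit of MYB-MuvB, was at 302 ± 6.0 and 320.3 ± 2.9 CPM and was not called (0.09, edgeR adjusted p = 0.0970), but was called with upper-quartile scaling (0.14), total-count scaling (0.21) and a filter of at least 1 CPM (0.10).

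**Figure D5:**
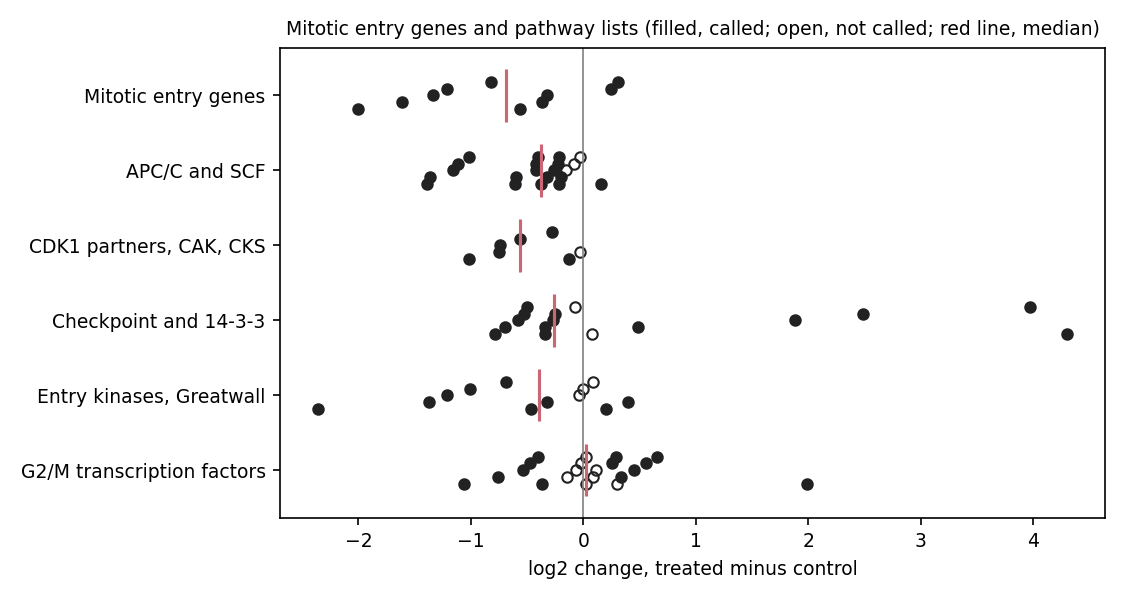
Log2 change, treated minus control, of the tested genes of the 5 pathway lists beside the 10 mitotic entry genes, with each point 1 gene, filled where called and open where not, and a red line at each list's median. CDKN1A and SFN lie highest at 4.30 and 3.97, and PLK1 lies lowest at -2.36.

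Genes with the pattern closest to that of CCNB1 over the 6 libraries, by Euclidean distance of centred log2 CPM among 13046 protein-coding genes, were BNC2 (distance 0.166, log2 change -2.13), BDNF (0.172, -2.06) and ADAMTS15 (0.192, -2.23). For WEE1 they were PUM3 (0.070, -0.38), MRM1 (0.082, -0.33) and CFDP1 (0.098, -0.36). With 6 libraries in 2 groups, this likeness rests mostly on the size of the group difference.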

How the data were processed

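RNA from AC16 monolayers was made into unstranded, poly(A)-selected TruSeq libraries, per the labels' protocols. The authors deposited whole-number read counts per gene, with coordinates and exon lengths. Alignment and counting tools named in the submitters' processing notes are STAR, SAMtools and Subread's featureCounts, on hg38 (GRCh38). No source used here states the annotation release or how reads in overlapping genes were counted. Symbols came from a reference gene-name table or GENCODE v29 for 58179 of 58299 identifiers. Low-count genes were removed by filterByExpr (groups given, minimum count 10) and the counts were scaled by TMM and tested with edgeR 4.0.16 in R 4.3.3 without covariates. The threshold was 0.05 after Benjamini-Hochberg adjustment over 15575 genes. Standard errors were the absolute log2 change over the root of F. TPM used the table's own lengths. Replicate pairs differed beyond sampling noise (chi-square per degree of freedom 2.84 to 3.77), and each library counts once. The mitotic entry genes, lists and tests were chosen with earlier results of these data known. Named from each list were the 3 largest called changes with groups apart, plus 15 genes chosen by role. Alternatives were other scalings, filters and tests, a replicate block and leaving out each library.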

Additional observations from a re-analysis of the deposited data

How the results depend on the processing

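All 10 mitotic entry genes kept their direction and their call with RLE, upper-quartile and total-count scaling, with either other filter, with DESeq2 and limma-voom, at an adjusted p under 0.01 and with each library left out. The count of called genes was 9893 (4865 lower, 5028 higher), 9877 with RLE factors, 9244 with DESeq2, 9890 with limma-voom, 11032 with no filter, 8513 at an adjusted p under 0.01 and 9283 to 9695 with 1 library left out. Total-count scaling moved the higher share of calls from 50.8% to 63.8%. Against a 1.5-fold change (glmTreat), 2993 genes were called (1141 lower, 1852 higher), with 5 of the mitotic entry genes (5 lower, 0 higher) and 19 pathway genes (14 lower, 5 higher), from 59 (44 lower, 15 higher); fewer calls follow from the stricter question. CKS1B turned from -0.03 to 0.026 with upper-quartile and 0.10 with total-count scaling, and the cause was not tested. The replicate numbers showed no sign of pairing the libraries. Deviations of same-numbered libraries from their group means correlated at -0.058, -0.029 and -0.016, and those of differently numbered libraries at -0.0093 to 0.037. Such values cannot show whether the samples were handled in pairs. A replicate block gave 9653 called genes (4761 lower, 4892 higher) and the same 8 lower and 2 higher mitotic entry genes, and changed none of their calls. At this depth CCNA1, CCNB3, AURKC and GADD45G were too low to test.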
